A study of Mus musculus with 6 samples.

Results

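The 10 genes described here are the mGluR6 cascade of ON bipolar cells and its regulators, namely Grm6, Nyx, Lrit3, Gpr179, Trpm1, Gnao1, Rgs7, Rgs11, Pcp2 and Prkca. They were taken by symbol from a table of 32371 genes, all 10 were found, and all 10 were among the 18138 genes that passed the filter on low counts. The table held RNA-Seq counts of 6 libraries of retinal cells. Adult C57BL/6J mice of both sexes received an intravitreal injection of AAV2-GFP (the control, 3 libraries) or of AAV2-Ezh2-Y726D (3 libraries), which carries a catalytically dead form of the H3K27 methyltransferase Ezh2. Optic nerve crush (ONC) followed after 2 weeks in both groups, and 3 days later living cells positive for CD90.2, the surface protein encoded by Thy1, were sorted from dissociated retinas to enrich retinal ganglion cells. The study asked with these libraries which transcripts change when Ezh2-Y726D is overexpressed in such cells. AAV2 given into the vitreous reaches mainly, but not only, ganglion cells. The sources do not say whether 1 library holds 1 mouse or a pool, so P values measure the spread between these libraries, which may be partly technical.

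In darkness photoreceptors release glutamate, and mGluR6 on the dendrites of ON bipolar cells activates the G protein Go, which keeps the cation channel TRPM1 closed. Light lowers glutamate, the RGS proteins switch Go off, TRPM1 opens and the cell depolarises. Loss of the receptor, the channel or the scaffold proteins around them causes congenital stationary night blindness without loss of the cells. PKC alpha, encoded by Prkca, is abundant in rod bipolar cells and serves as their usual marker in sections, and some amacrine cells also contain it.

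Transcripts of other retinal cells were abundant in the sorted samples. Per kilobase of exon, the GFP libraries held a mean of 312 CPM for the rod transducin gene Gnat1 and 895 for the Müller glia gene Glul. For the ganglion cell genes Rbpms and Pou4f2 the corresponding levels were 2.34 and 0.55, and for Thy1 itself 35.2. Other genes of the ganglion cell list were higher, with 42.8 for the neurofilament gene Nefl, 34.5 for Sncg and 14.9 for the glutamate transporter gene Slc17a6. CPM here are edgeR's depth-normalised counts of the TMM-scaled library. The level of Trpm1 was 20.3 CPM per kilobase, within the range of the ganglion cell genes. Total counts ran from 9333244 to 23782520 per library, and the rRNA gene CT010467.1, singled out after its values were seen, took 6.59%, 50.9% and 52.2% of the GFP libraries and 2.55%, 16.1% and 7.39% of the Ezh2-Y726D libraries. Ezh2 itself, which checks the labels, measured 22.7, 23.9 and 26.4 CPM with GFP and 65.2, 65.6 and 65.2 CPM after Ezh2-Y726D (log2 fold change 1.46, SE 0.061, adjusted P = 3.01e-16 by edgeR).

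After TMM scaling, 5 of the 10 genes were lower after Ezh2-Y726D (Grm6, Nyx, Gpr179, Trpm1 and Pcp2), 2 were higher (Gnao1 and Prkca) and 3 were not called (Lrit3, Rgs7 and Rgs11) at an adjusted P under 0.05 in edgeR's quasi-likelihood test. When libraries were scaled by their totals, rRNA gene included, none of them was called and the fold changes of Grm6, Gpr179, Trpm1, Pcp2, Lrit3 and Rgs11 turned positive, while the median of all genes moved to 0.49 on the log2 scale. Relative to that median, each of the 10 kept its sign, with Nyx at -0.54, Trpm1 at -0.36 and Prkca at 0.35. Of all genes tested, 13.6% were called lower and 13.9% higher, 27.5% in all. The median log2 fold change of the 10 genes was -0.22, against 0.00 over all genes tested. None was a differentially expressed gene (DEG) by the study's thresholds, which add a fold change above 1.5 in either direction, whereas 8.02% of the genes tested were (5.5% lower and 2.52% higher). The libraries of the groups did not overlap for 8 of the 10 genes, with 6 lower and 2 higher after Ezh2-Y726D, against 18.9% lower and 19.7% higher of all genes tested. At an unadjusted P under 0.05 there were 7 of the 10, against 36.2% of all genes tested. DESeq2 also gave 0 DEGs among the 10, against 6.05% of the 17309 genes to which it gave an adjusted P. The differences were thus moderate in size, between 13.2% and 30.2% of the GFP mean for the 7 genes called. In these bulk libraries fewer cells of a type and less RNA per cell cannot be told apart.

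**Figure D1:**
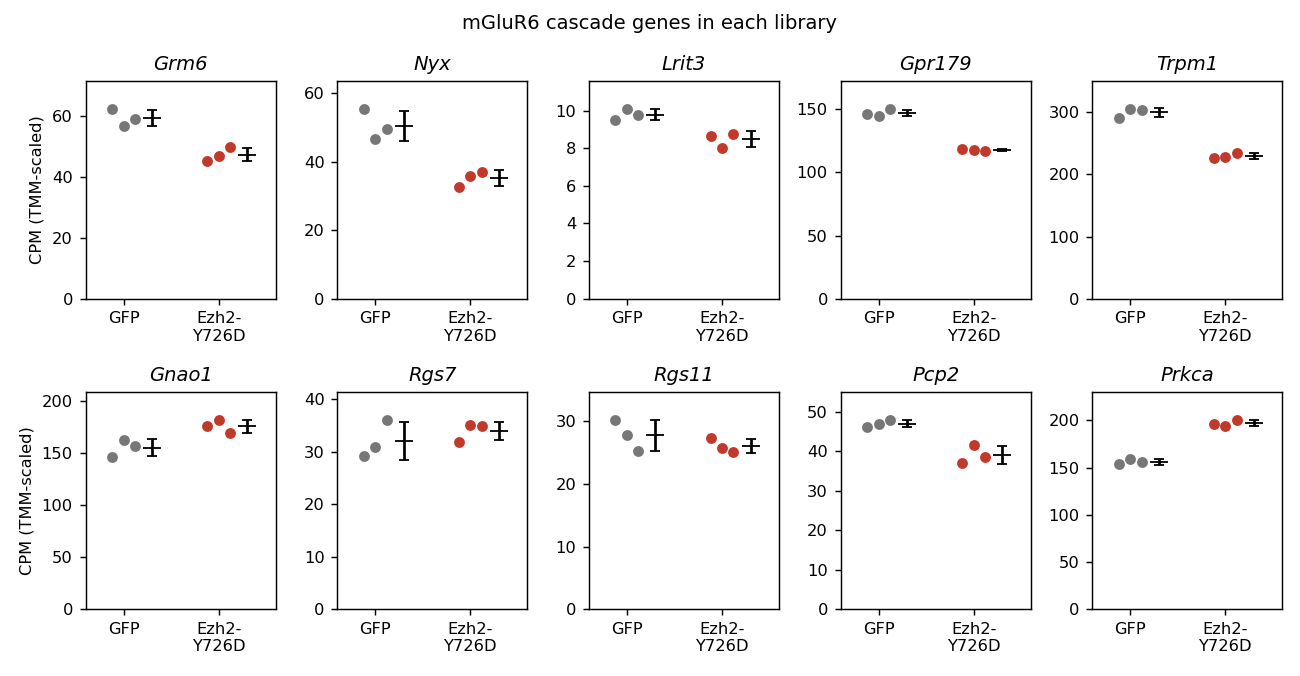
CPM of the TMM-scaled library (y axis, linear, each panel with its own scale from 0) of the 10 genes in each of the 3 GFP and 3 Ezh2-Y726D libraries; points are libraries, and the ticks and bars beside them are the group mean and SD. The libraries of the groups do not overlap for Grm6, Nyx, Lrit3, Gpr179, Trpm1 and Pcp2, which are lower after Ezh2-Y726D, or for Gnao1 and Prkca, which are higher; by library totals the fold changes of Grm6, Gpr179, Trpm1, Pcp2 and Lrit3 turn positive.

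The sequence before the start of 4 of these genes is shown because these windows differ widely in CpG content. Each is the 250 bases before the RefSeq start on GRCm38.p6, read 5′ to 3′ on the strand of the gene, with CG dinucleotides in capitals. The windows are chr11:50850435-50850684 (plus strand) for Grm6, chr7:64153585-64153834 (plus) for Trpm1, chrX:13460840-13461089 (plus) for Nyx and chr11:108343889-108344138 (minus) for Prkca. The first 3 belong to the receptor, the channel and the scaffold gene with the largest fall, and the last to the gene with the largest rise.
Grm6: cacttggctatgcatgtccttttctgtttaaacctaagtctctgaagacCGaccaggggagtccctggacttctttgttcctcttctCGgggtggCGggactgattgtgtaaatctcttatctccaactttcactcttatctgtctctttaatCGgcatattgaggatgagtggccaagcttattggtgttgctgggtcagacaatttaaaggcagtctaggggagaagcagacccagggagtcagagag
Trpm1: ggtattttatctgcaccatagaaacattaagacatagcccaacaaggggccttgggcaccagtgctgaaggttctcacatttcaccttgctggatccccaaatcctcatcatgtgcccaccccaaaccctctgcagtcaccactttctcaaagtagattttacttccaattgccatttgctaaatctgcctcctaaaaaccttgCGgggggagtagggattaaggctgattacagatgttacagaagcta
Nyx: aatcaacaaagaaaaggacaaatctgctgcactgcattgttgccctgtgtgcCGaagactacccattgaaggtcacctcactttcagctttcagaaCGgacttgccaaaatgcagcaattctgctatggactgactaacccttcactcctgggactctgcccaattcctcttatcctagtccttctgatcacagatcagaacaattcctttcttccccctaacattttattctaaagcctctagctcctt
Prkca: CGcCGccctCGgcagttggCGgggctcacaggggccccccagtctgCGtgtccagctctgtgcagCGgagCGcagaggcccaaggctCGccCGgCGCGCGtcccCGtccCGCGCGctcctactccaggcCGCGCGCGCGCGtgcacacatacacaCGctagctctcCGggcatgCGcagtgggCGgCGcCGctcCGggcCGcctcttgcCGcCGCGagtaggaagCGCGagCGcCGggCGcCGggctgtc

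Grm6 encodes mGluR6, the receptor that gives the cascade its name (ENSMUSG00000000617, chr11:50850685-50866208, plus strand, GENCODE vM21 on GRCm38). Its level was 62.3, 56.9 and 59.0 CPM with GFP and 45.4, 47.1 and 49.9 CPM after Ezh2-Y726D. All Ezh2-Y726D libraries lay below all GFP libraries, and the log2 fold change was -0.34 (SE 0.055, adjusted P = 2.06e-05, edgeR). Of its exonic bases, 11.1% are shared with Gm12660 on the opposite strand, which measured a mean of 0.94 CPM in the GFP group. The strand setting of the counting is not given in the sources used here, so that the counts of such pairs are uncertain.

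Nyx encodes nyctalopin, a leucine-rich repeat protein of the dendritic tips that is needed to place TRPM1 there (ENSMUSG00000051228, chrX:13466110-13489313, plus strand). It measured 55.2, 46.4 and 49.4 CPM with GFP and 32.7, 35.8 and 37.0 CPM after Ezh2-Y726D. The groups did not overlap, and this was the largest fall of the 10 (log2 fold change -0.55, SE 0.065, adjusted P = 1.20e-07, edgeR). Only 7.32% of the genes tested had a lower log2 fold change. It stood just short of the DEG threshold, and passed it without GFP replicate 2 (-0.60) or without Ezh2-Y726D replicate 3 (-0.59). Without GFP replicate 1 it was -0.44 and without Ezh2-Y726D replicate 1 it was -0.50.

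Gpr179 encodes the orphan receptor that anchors the RGS proteins at the tips (ENSMUSG00000070337, chr11:97332109-97352077, minus strand). Its level was 146, 145 and 150 CPM with GFP and 118, 117 and 117 CPM after Ezh2-Y726D. The spread within each group was small beside the gap between them (log2 fold change -0.32, SE 0.040, adjusted P = 2.42e-07, edgeR). Lrit3 encodes a leucine-rich repeat protein that also helps to place the channel (ENSMUSG00000093865, chr3:129787881-129804030, minus strand). It was the least abundant of the 10, at 9.51, 10.1 and 9.79 CPM with GFP and 8.64, 7.99 and 8.78 CPM after Ezh2-Y726D, from 59 to 271 counts per library. The groups did not overlap, but the difference did not pass the test (log2 fold change -0.19, SE 0.10, adjusted P = 0.198, edgeR). Over the receptor and its scaffold, 3 of 4 genes were lower, none was higher and the median log2 fold change was -0.33.

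Trpm1 encodes the cation channel that carries the light response (ENSMUSG00000030523, chr7:64153835-64269775, plus strand). It measured 291, 304 and 303 CPM with GFP and 226, 228 and 235 CPM after Ezh2-Y726D. The groups stood well apart, with a log2 fold change of -0.38 (SE 0.039, adjusted P = 1.06e-08, edgeR). The receptor, the channel and Gpr179 fell by similar amounts. The log2 ratio of Grm6 to Gpr179 within a library was -1.31 in both groups (SD 0.065 and 0.079, n = 3 each), and that of Grm6 to Trpm1 also overlapped between groups (-2.33 and -2.28). The log2 ratio of Nyx to Grm6 was -0.24 in the GFP libraries and -0.43 after Ezh2-Y726D, without overlap, whereas that of Nyx to Trpm1 overlapped between groups (-2.58 and -2.71). Such ratios do not depend on how libraries are scaled.

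Gnao1 encodes G alpha o, the G protein subunit that mGluR6 activates, and is also expressed widely in other neurons (ENSMUSG00000031748, chr8:93809966-93969388, plus strand). Its level was 146, 163 and 156 CPM with GFP and 176, 182 and 169 CPM after Ezh2-Y726D. The groups did not overlap, but GFP replicate 2 and Ezh2-Y726D replicate 3 lay close to each other (log2 fold change 0.19, SE 0.044, adjusted P = 0.00128, edgeR). Without GFP replicate 1 the adjusted P was 0.0488.

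Rgs7 and Rgs11 encode the R7 family RGS proteins that speed the shut-off of Go. Rgs7 (ENSMUSG00000026527, chr1:175059087-175492500, minus strand) measured 29.2, 30.8 and 36.0 CPM with GFP and 31.9, 35.0 and 34.8 CPM after Ezh2-Y726D. GFP replicate 3 was the highest of all 6 libraries, and the difference did not pass the test (log2 fold change 0.13, SE 0.069, adjusted P = 0.185, edgeR). It passed without that library (0.19, adjusted P = 0.0477, edgeR) and fell to 0.03 without GFP replicate 1. Rgs11 (ENSMUSG00000024186, chr17:26202951-26211324, plus strand) measured 30.1, 27.7 and 25.2 CPM with GFP and 27.3, 25.7 and 24.98 CPM after Ezh2-Y726D. Its groups overlapped too, with a log2 fold change of -0.13 (SE 0.069, adjusted P = 0.159, edgeR) that became -0.035 without GFP replicate 1.

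Pcp2 encodes a GoLoco protein that binds G alpha i and o and is found in ON bipolar and Purkinje cells (ENSMUSG00000004630, chr8:3623371-3625545, minus strand). It measured 46.2, 47.0 and 47.9 CPM with GFP and 37.1, 41.7 and 38.7 CPM after Ezh2-Y726D. No library of one group reached the other (log2 fold change -0.26, SE 0.059, adjusted P = 0.00106, edgeR). Its exons share 51.5% of their bases with Pet100 on the opposite strand, a gene with a mean of 10.2 CPM in the GFP group. Over the G protein and its regulators, 1 of 4 genes was higher and 1 lower.

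Prkca rose, as Gnao1 did, opposite to the receptor and channel genes (ENSMUSG00000050965, chr11:107933387-108343928, minus strand). It measured 153, 159 and 156 CPM with GFP and 196, 194 and 200 CPM after Ezh2-Y726D. The groups were far apart relative to their spread, with a log2 fold change of 0.34 (SE 0.039, adjusted P = 8.21e-08, edgeR). Of the genes tested, 89.2% had a lower log2 fold change. The log2 ratio of Prkca to Grm6 went from 1.40 ± 0.093 in the GFP libraries to 2.05 ± 0.055 after Ezh2-Y726D (SD, n = 3 each). For Trpm1 it went from -0.94 ± 0.019 to -0.22 ± 0.017. The ratio to each of the other 9 genes was higher in every Ezh2-Y726D library than in any GFP library, by 0.15 for Gnao1 up to 0.85 for Nyx. These ratios are descriptions, since the gene was singled out with this pattern known.

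The order of levels in the GFP group was set per kilobase of exon. Pcp2 was highest at 25.7 CPM per kilobase, followed by Trpm1 (20.3), Prkca (17.4), Gpr179 (15.4), Gnao1 (14.0), Grm6 (10.96), Nyx (9.71), Rgs11 (6.58), Rgs7 (5.31) and Lrit3 (3.57). Neighbours in this order did not overlap between GFP libraries except Grm6 and Nyx. The receptor was thus present at a lower level per length than its channel, and the whole set spanned 7.20-fold.

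Other known partners of the cascade were read from a list of 8 genes. Of these, 3 were lower, 1 was higher and 4 were not called, with a median of 0.00. Gnb3, the G protein beta subunit of ON bipolar cells and cones, fell from 255 to 189 CPM (log2 fold change -0.43, adjusted P = 9.50e-10, edgeR). Gng13, its gamma partner in ON bipolar cells, fell from 37.0 to 27.5 CPM (-0.45, adjusted P = 1.54e-05, edgeR), though it shares 51.6% of its exonic bases with Chtf18 on the opposite strand (mean 3.97 CPM in the GFP group). Rgs9bp, the anchor of RGS9 in photoreceptors, fell by 0.24 on the log2 scale, and Rgs7bp, which binds R7 RGS proteins in many neurons, rose by 0.24. The fall of Rgs9bp was not called without GFP replicates 2 and 3 together (-0.16, adjusted P = 0.0509, edgeR). The rise of Rgs7bp was not called without GFP replicate 1 (adjusted P = 0.0921, edgeR) or with thinned counts (adjusted P = 0.193, edgeR). The beta subunit gene Gnb5, the chaperone gene Ric8b, and Lrfn2 and Tpbg lay between -0.04 and 0.09 and were not called. By library totals none of the 8 was called and Gnb3, Gng13, Gnb5 and Rgs9bp changed sign.

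**Figure D2:**
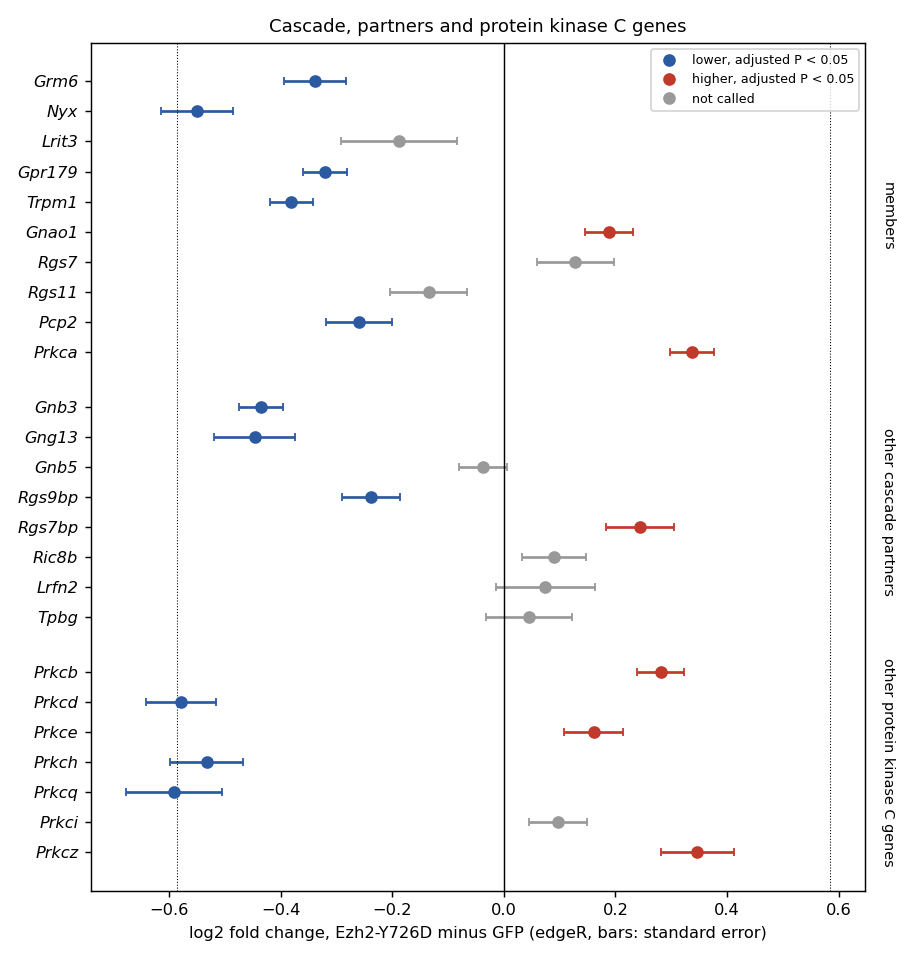
Log2 fold change of Ezh2-Y726D against GFP (x axis) of the 10 genes, 8 cascade partners and other protein kinase C genes; points are edgeR estimates after TMM scaling, bars are standard errors and dotted lines mark a fold change of 1.5. Prkca lies at 0.34 while Grm6, Nyx, Gpr179 and Trpm1 lie between -0.55 and -0.32; by library totals Grm6, Gpr179 and Trpm1 turn positive, as do Lrit3, Rgs11, Pcp2, Gnb3, Gng13, Gnb5 and Rgs9bp.

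The relatives of single members were read in the same way. Of 9 protein kinase C genes, 4 were higher, Prkca included, and 3 lower, so that 3 of its 8 relatives rose and 3 fell. Prkcb rose from 133 to 162 CPM (log2 fold change 0.28, adjusted P = 5.83e-06, edgeR), and its ratio to Prkca overlapped between groups. Prkcz (0.35) and Prkce (0.16) also rose, while Prkcd (-0.58), Prkch (-0.53) and Prkcq (-0.59) fell, the last as the only DEG of the family. Prkce was not called without GFP replicate 1, GFP replicate 2 or Ezh2-Y726D replicate 3, nor by DESeq2 (adjusted P = 0.0765) or with thinned counts (adjusted P = 0.0781, edgeR). Prkci (0.10) did not pass the test. The group III glutamate receptors, to which mGluR6 belongs, were all called, and Grm6 was the one that fell. Grm4 rose by 0.68, Grm8 by 0.64 and Grm7 by 0.30 on the log2 scale. Among the other inhibitory G alpha genes, Gnai1 rose from 23.6 to 37.3 CPM (0.64, adjusted P = 4.43e-09, edgeR), Gnai2 (-0.12) and Gnai3 (-0.20) fell, and Gnaz (0.08) was not called. By library totals Gnai2 and Gnai3 changed sign. Of the other R7 genes, Rgs6 rose by 0.13 (adjusted P = 0.0415, edgeR), and Rgs9 was at -0.02 and not called. The calls of Rgs6, Gnai2 and Gnai3 were less firm. Rgs6 kept its call when Ezh2-Y726D replicate 3 was left out and lost it without any of the other 5 libraries. Gnai2 was not called without GFP replicate 3, Ezh2-Y726D replicate 2 or replicate 3, and Gnai3 not without GFP replicates 1 or 3 or Ezh2-Y726D replicates 1 or 2. On the photoreceptor side of the same synapse, 5 of 11 genes fell and none rose (median -0.17). The calcium channel subunit gene Cacna2d4 fell most, from 246 to 181 CPM (-0.44, adjusted P = 1.65e-09, edgeR).

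Markers of the cell types of the retina moved as well. Of 14 bipolar cell markers apart from the 10 genes, 10 were lower and 2 higher, with a median of -0.55. Their summed level was 968 to 977 CPM with GFP and 688 to 697 CPM after Ezh2-Y726D, and none was at 0. The transcription factor gene Otx2 fell by 0.56 on the log2 scale and the bipolar calcium-binding protein gene Cabp5 by 0.61, while Scgn fell most (0.82) and Vstm2b rose most (0.62). Relative to Cabp5 within a library, the log2 ratio of Grm6 went from -0.96 to -0.67 and that of Trpm1 from 1.38 to 1.61, both without overlap, while that of Nyx overlapped between groups. The log2 ratio of Prkca to Cabp5 went from 0.44 to 1.39, without overlap. The part of the bipolar markers in the falls of the cascade was not tested.

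Of the 10 amacrine markers tested, 9 were higher and none lower (median 0.53). The glycine transporter gene Slc6a9 rose most (0.74). The summed level of all 12 listed amacrine markers, with the untested Chat and Slc18a3, was 1590 to 1724 CPM with GFP and 2437 to 2519 CPM after Ezh2-Y726D. This moved with Prkca and Gnao1, and its part in their rise was not tested. Cone markers fell in 7 of 9 genes (median -0.64, summed 454 to 476 against 294 to 311 CPM), with Gngt2 falling most (-0.78). Rod markers summed to 7203 to 7470 against 7810 to 8124 CPM, with 1 of 14 lower and 4 higher, among them Gnat1 (0.12), while Gngt1 (-0.34) fell. Ganglion cell markers summed to 467 to 482 against 454 to 493 CPM, with 1 of 12 lower (Nrn1, -0.22) and 2 higher (Pou4f1, 0.41, and Thy1, 0.13), while Rbpms (-0.20) was not called. Müller glia markers summed to 7981 to 8402 against 7960 to 8296 CPM, with the largest fall in Vim (-0.21) and the largest rise in Sox9 (0.21). Microglia markers fell in 8 of 11 genes (summed 901 to 1002 against 571 to 670 CPM; Fcrls -1.49, while Sall1 rose by 0.61), and T cell markers in 8 of 8 (130 to 132 against 74.6 to 81.8 CPM; Cd8a -0.97). Of 8 endothelial markers 3 fell (Esam most, -0.79), and of 4 horizontal cell markers tested only Prox1 fell (-0.15). No marker on these lists was at 0 in every library.

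**Figure D3:**
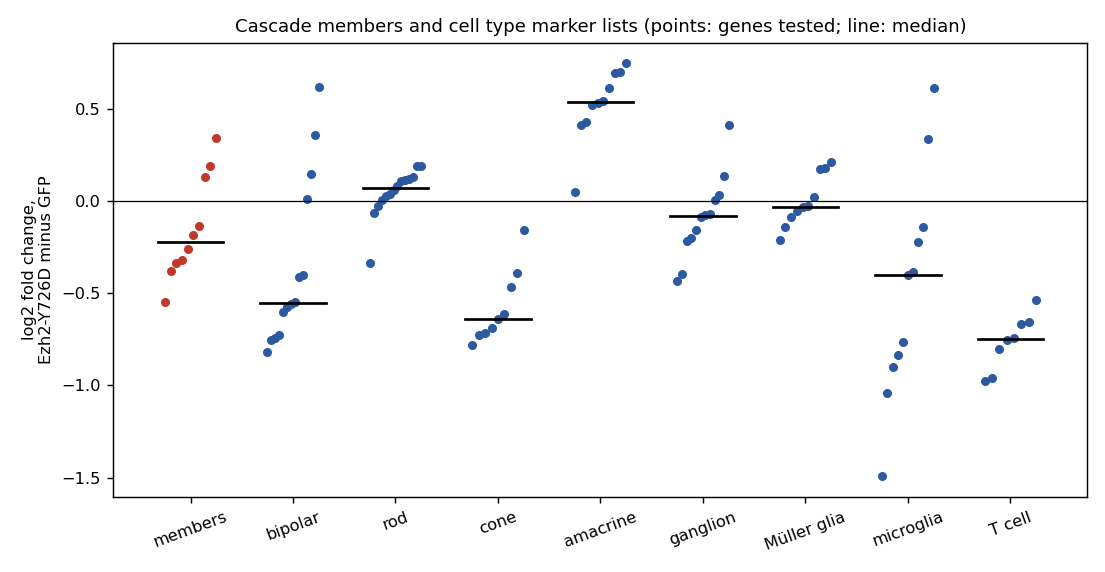
Log2 fold change of Ezh2-Y726D against GFP after TMM scaling for each gene of the 10 and of the cell type marker lists; each point is 1 gene and each bar the median of its list. Bipolar and cone markers have medians of -0.55 and -0.64 and amacrine markers a median of 0.53; these values are relative to TMM scaling, and by library totals the median of all genes lies at 0.49.

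CpG dinucleotides, which are dense in CpG island promoters, were counted in the same window of the 9 genes matched in RefSeq, of which 4 are printed above. The Prkca window held 39, more than 98.4% of the 32851 windows in the table, whose median was 6. Gnao1 held 36 and Rgs7 held 22. The remaining windows held few, with 6 in Lrit3, 4 in Grm6, 2 in Gpr179, 2 in Nyx and 1 at the first starts of Trpm1 and Pcp2. The 3 genes with a positive log2 fold change were the 3 with the most CpG dinucleotides among these 9. This describes a set chosen with its fold changes known. Of these 9, Rgs7 (0.13) and Lrit3 (-0.19) were not called, and Rgs7 fell to 0.03 without GFP replicate 1. Among the relatives called and matched to a window, the order of CpG counts and fold changes did not hold throughout. At their first starts, Prkcq held 30, Prkcd 18 and Gnai3 18, and these fell. Gnai1 held 43, Grm8 29, Prkcz 25, Rgs6 18, Prkcb 17 and Grm7 8, and these rose. The letters TAATCC, the core bound by the retinal factors Crx and Otx2, were searched on both strands. They stood in the first Trpm1 window (as ggatta) and in no other window of the 9 genes, and in 6.25% of all windows. The Nyx window lies upstream of the start that GENCODE gives for the gene.

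**Figure D4:**
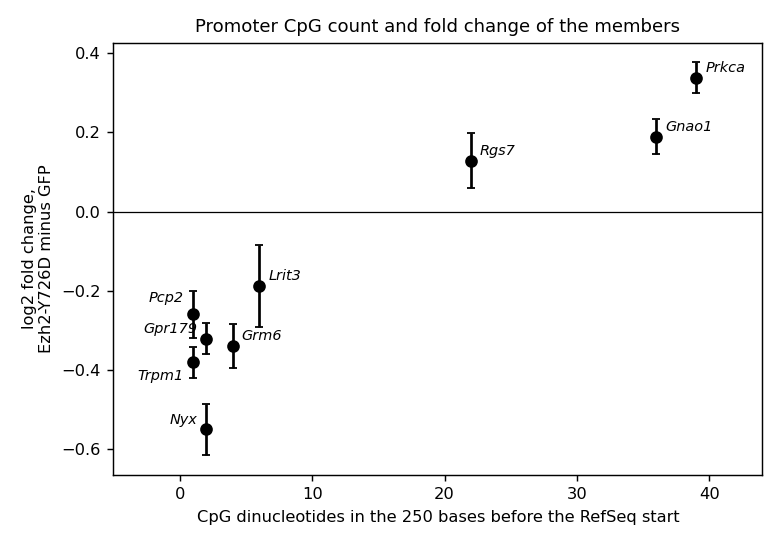
Number of CpG dinucleotides in the 250 bases before the first RefSeq start (x axis) and log2 fold change of Ezh2-Y726D against GFP with its standard error (y axis) for 9 of the 10 genes; each point is 1 gene. Prkca, Gnao1 and Rgs7 hold 39, 36 and 22 and lie above 0, the others hold 6 or fewer and lie below 0. Rgs7 and Lrit3 were not called. By library totals all but Nyx lie above 0.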

How the data were processed

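The libraries were made from CD90.2-positive retinal cells with a stranded total RNA kit. The authors deposited raw, unnormalised read counts for each gene. The submitters' processing notes name STAR 2.7.0d and GRCm38, while the counting tool, its strand setting and its annotation are not given in the sources used here. Gene positions and exon lengths were taken from GENCODE vM21 and promoter windows from RefSeq. The deposited counts were fitted with edgeR 4.0.16 (R 4.3.3; quasi-likelihood test, TMM factors from 0.647 to 1.31, filterByExpr with 10 counts and a total of 15, 3 libraries against 3). P values were adjusted by Benjamini-Hochberg over 18138 genes, and the script was tested on simulated data. Replicate libraries differed by more than sampling noise. The precision follows the total without the rRNA gene, from 4460732 to 22024582 counts.

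The 10 genes and all lists were chosen with earlier results of these data known. Named were the 10 genes, every gene of the partner and family lists, the largest rise and fall called in each marker list, and Otx2, Cabp5, Gnat1, Rbpms, Thy1 and Ezh2. Glul, Pou4f2, Nefl, Sncg, Slc17a6, CT010467.1 and genes that share exons were named after their values were seen. Some items are not reported here. Alternatives were RLE size factors, library totals with and without CT010467.1, DESeq2 1.42.0, 2 other filters, a replicate block, thinned counts, a fold change over 2, and leaving out libraries.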

Additional observations from a re-analysis of the deposited data

How the results depend on the processing

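Apart from library totals, 15 settings gave 150 results for the 10 genes, of which 0 reversed, 0 lost their call and 2 gained one. By library totals the log2 fold changes were 0.16 for Grm6, 0.13 for Trpm1, 0.18 for Gpr179, -0.051 for Nyx, 0.30 for Lrit3, 0.38 for Rgs11, 0.70 for Gnao1, 0.24 for Pcp2 and 0.85 for Prkca, none called, and 0.065 for Gnb3, 0.056 for Gng13, 0.46 for Gnb5, 0.27 for Rgs9bp, 0.49 for Rgs9, 0.39 for Gnai2 and 0.29 for Gnai3. The rRNA gene is part of those totals, and 65 genes were called in all, 0 of them among the 10 genes, the partners, the protein kinase C genes or the bipolar markers in either direction.

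Rgs7 was called without GFP replicate 3 (0.19) and, in a setting chosen after seeing the data, without GFP replicates 2 and 3 together (0.22, adjusted P = 0.0449, edgeR), with a range of 0.029 to 0.19 over the fits without 1 library. Without 1 library, DEGs numbered 0 to 1 among the 10 genes, and 1 (Nyx) without GFP replicates 2 and 3. Of the partners, 0 to 1 were higher without 1 library and 0 with counts thinned to 4460732. Protein kinase C DEGs numbered 0 to 2 without 1 library, 2 by DESeq2 or by totals without the rRNA gene, and 0 with no filter, at a fold change over 2 or without GFP replicates 2 and 3. Bipolar markers called higher numbered 1 to 2 without 1 library and 1 by DESeq2, and bipolar DEGs 0 at a fold change over 2. Tpbg, not called, ranged from -0.0059 to 0.10 without 1 library. Rgs9, not called, was 0.018 with thinned counts, 0.028 without GFP replicates 2 and 3, and -0.052 to 0.031 without 1 library. The cause of these shifts was not tested. Leaving CT010467.1 out before TMM, also chosen after seeing the data, changed no call of the 10 genes.

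Libraries with the same replicate number had deviations that correlated at 0.024 to 0.072, under the 0.1 taken to mark pairs, although all 6 correlated best with their own number. With the replicate block 5222 genes were called against 4988, with 1403 against 1455 DEGs, Grm6 to Prkca kept their calls, and Nyx was at -0.56. Among the other listed genes, 373 results outside library totals included 28 lost calls, all in Rgs9bp, Rgs7bp, Prkce, Rgs6, Gnai2 and Gnai3. Rgs6 also lost its call by DESeq2 (adjusted P = 0.106), with thinned counts (0.379), by totals without the rRNA gene (0.0894) and without GFP replicates 2 and 3 (0.151). Gnai2 lost it with no filter (0.0913), with thinned counts (0.149) and without GFP replicates 2 and 3 (0.192), and Gnai3 by DESeq2 (0.0502). Depth limits Lrit3 most, with 59 counts in its shallowest library.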
